A study of Mus musculus with 12 samples.

Results

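Chemokine receptors are described here as 8 genes named by symbol, *Ccr1*, *Ccr2*, *Cx3cr1*, *Cxcr2*, *Cxcr4*, *Ccr7*, *Cxcr3*, and *Cxcr6*, out of 40551 genes with deposited counts. Each symbol matched 1 Ensembl identifier, and all 8 genes passed the filter on low counts that left 15070 genes to be tested.

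Chemokine receptors sit in the membrane of migrating cells, bind small secreted chemokines, and signal through inhibitory G proteins to direct movement along a chemokine gradient. In the liver, CCR2 and its ligand CCL2 bring monocytes from the blood, CXCR2 brings neutrophils, and CX3CR1 marks monocytes and a part of the resident macrophages. CXCR3 and CXCR6 guide T cells and natural killer (NK) cells in the liver sinusoids, CCR7 guides dendritic cells and naive T cells to lymphoid tissue, and CXCR4 is used by most leukocytes.

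The data are total RNA-seq of 12 mouse livers, 1 library per liver and 3 livers for each of 4 genotypes. The first genotype was wild type (WT). Mcl1Δhep livers (labelled Mcl1 KO) came from mice with floxed *Mcl1* and an Alb-Cre transgene, which the albumin promoter drives in hepatocytes, so leukocytes kept the gene. Mcl1Δhep Sting1-/- livers (labelled Mcl1 Sting1 DKO) had the same hepatocyte deletion with loss of *Sting1*, the adaptor of cytosolic DNA sensing, in all cells, and Sting1-/- livers (labelled Sting1 KO) had the loss of *Sting1* alone. The study describes the transcriptomes as those of livers at 2 months, and a separate age for the Sting1-/- livers and the *Sting1* allele were not given in the sources used here. Mice of both sexes were used.

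Counts on genes came to 28826367 to 45266387 per library. *Mcl1* had 90.2, 102, and 104 CPM (counts scaled to a common library size with TMM factors) in the 3 WT livers, 27.9, 34.0, and 25.0 in Mcl1Δhep, 18.1, 22.9, and 26.0 in Mcl1Δhep Sting1-/-, and 78.3, 90.1, and 77.0 in Sting1-/- livers, so all 6 livers with the deletion lay under the other livers. *Sting1* had 2.53, 2.43, and 2.11 CPM in WT, 4.59, 5.997, and 3.67 in Mcl1Δhep, 1.90, 2.53, and 2.33 in Mcl1Δhep Sting1-/-, and 1.16, 1.73, and 2.70 in Sting1-/- livers. The WT and Sting1-/- values overlapped, so the transcript level did not separate the libraries labelled Sting1-/- from WT, and these libraries are named by their labels throughout. All Mcl1Δhep Sting1-/- livers lay under all Mcl1Δhep livers. For its Sting1-/- mice the study reports the knockout at the protein level, by Western blotting and by missing IRF3 phosphorylation in splenocytes given a STING agonist. A transcript can remain where the protein is lost, so these counts do not test the knockout. Small structured RNAs took 2.37 and 1.36% of the counts in Mcl1Δhep replicates 2 and 3 and 0.172 to 0.897% in the other 10 libraries. Mcl1Δhep replicate 3 held 0.134% of its counts on skeletal muscle genes. Y-linked genes were expressed in WT replicates 2 and 3 and Mcl1Δhep Sting1-/- replicate 1, and summed to at most 0.19 CPM in the others. Y-linked expression, and with it the sex that it marks, was therefore not balanced between Mcl1Δhep and WT livers. No Mcl1Δhep liver was male by this measure, whereas WT replicates 2 and 3 were. With it as a covariate, edgeR called 1529 in place of 3050 genes between them. The part of these differences in the results was not tested beyond the fits named beside them. The labels do not say how the livers of a genotype relate to each other beyond their genotype, so p-values measure the spread between these samples.

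All 8 receptors were rare transcripts in whole liver. Per length, in TPM (counts per exon length scaled to a common total), *Cxcr6* (1.79 ± 0.542, mean ± SD, n = 3), *Cxcr4* (1.61 ± 0.518), *Cx3cr1* (1.53 ± 0.764), *Ccr7* (1.42 ± 0.493), *Cxcr3* (1.40 ± 0.294), and *Ccr2* (1.20 ± 0.509) followed each other in WT livers with overlapping libraries. *Ccr1* (0.412 ± 0.237 TPM) lay under *Ccr2* without overlap, and *Cxcr2* (0.216 ± 0.133 TPM) overlapped with *Ccr1*. In Mcl1Δhep livers, the order of the TPM levels opened with *Cxcr4* (9.83 ± 5.07), which lay above *Ccr2* (4.25 ± 1.92) without overlap, and ended with *Cxcr2* (0.707 ± 0.327), under *Cxcr3* (1.77 ± 0.539) without overlap. The 5 genes between, *Cx3cr1* (2.92 ± 0.699 TPM), *Cxcr6* (2.54 ± 0.649), *Ccr7* (2.33 ± 0.992), *Ccr1* (1.94 ± 0.728), and *Cxcr3*, overlapped with their neighbors. Per length of the longest transcript, *Cxcr4* (7.66 ± 4.19 TPM) and *Ccr2* (3.90 ± 1.87 TPM) overlapped in Mcl1Δhep livers, so their separation depends on the length used. In Mcl1Δhep Sting1-/- livers no neighbors were separate, from *Cxcr4* (3.81 ± 1.46 TPM) down to *Cxcr2* (0.323 ± 0.113). Livers labelled Sting1-/- ran from *Cxcr6* (2.30 ± 0.749 TPM) to *Ccr1* (0.199 ± 0.0930), and *Cx3cr1* (0.655 ± 0.0658) lay under *Ccr2* (0.987 ± 0.0878) and above *Cxcr2* (0.203 ± 0.0812) without overlap.

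**Figure D1:**
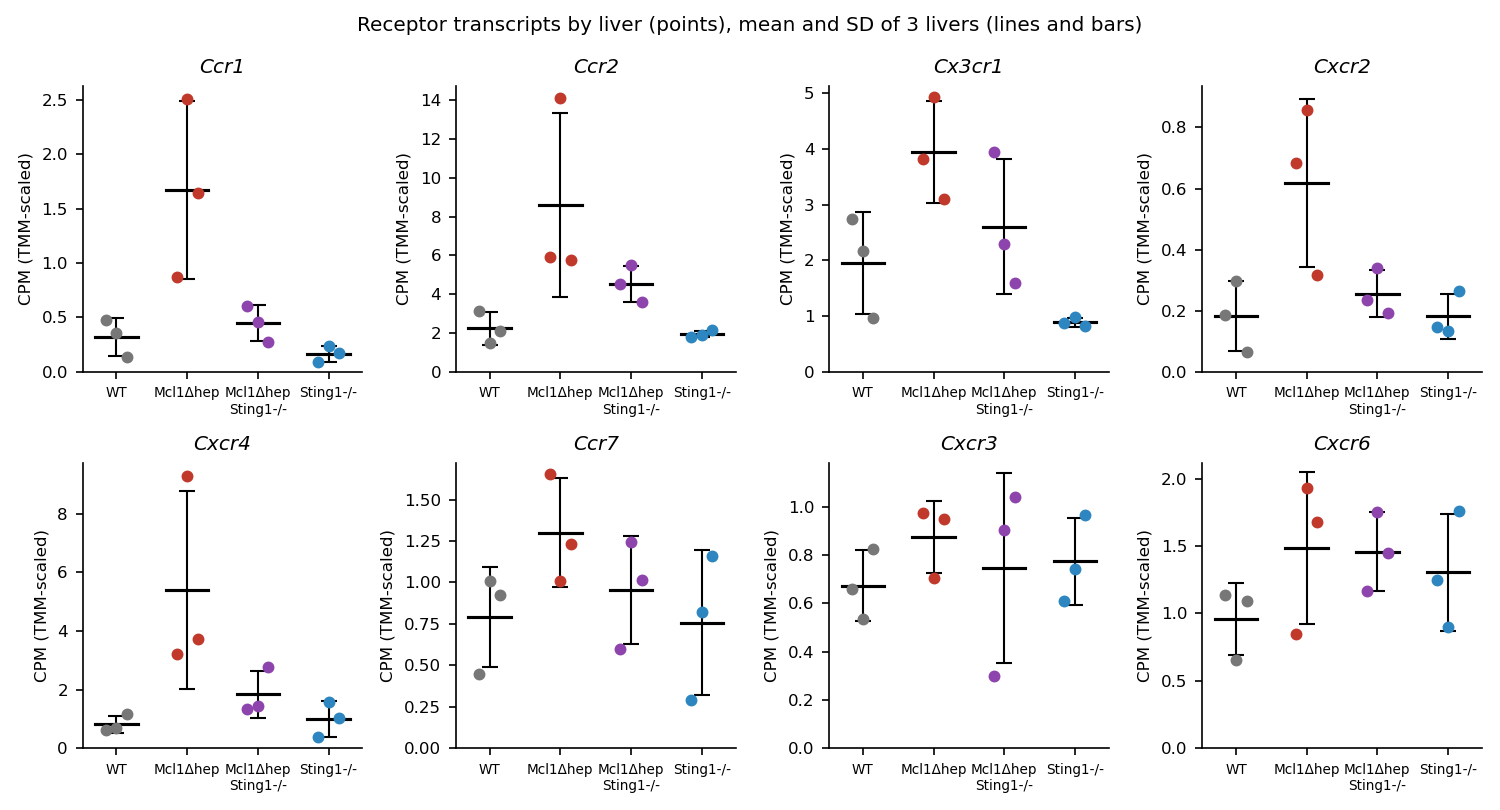
CPM (vertical axes, from 0, a scale of their own for each gene) of the 8 receptors in the 12 livers, grouped by genotype, with the mean (line) and SD (bar) of 3 livers. For *Ccr1*, *Ccr2*, *Cxcr2*, and *Cxcr4* all 3 Mcl1Δhep livers lie above all 3 WT livers, and replicate 2 of Mcl1Δhep is the highest point for each of these genes.

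The comparison of Mcl1Δhep with WT livers asks how loss of MCL1 in hepatocytes changed the transcripts of receptors carried by other cells. *Cxcr4*, *Ccr1*, *Ccr2*, and *Cxcr2* rose in Mcl1Δhep livers, by 6.58-, 5.06-, 3.83-, and 3.32-fold, whereas *Cx3cr1*, *Ccr7*, *Cxcr6*, and *Cxcr3* did not pass the threshold. This makes 4 of 8 receptors called by edgeR's quasi-likelihood test at a Benjamini-Hochberg adjusted p under 0.05, all of them higher. The same test called 20.2% of all tested genes and 10.8% as higher. Because the receptors were chosen with earlier results of these data known, their share beside that of all genes is a description and no test. *Cxcr2* passed the filter on low counts through the Mcl1Δhep libraries alone, and of the 7 receptors without it 3 were called, with a median log2 fold change of 1.01. DESeq2 called 5 of the 8 receptors, with *Cx3cr1* added, beside 23.0% of its tested genes. The median log2 fold change of the 8 receptors was 1.37, and that of all tested genes was −0.0049. In 6 of the 8 receptors (all but *Cxcr6* and *Cxcr3*) the 3 Mcl1Δhep libraries did not overlap the 3 WT libraries, as did 33.3% of all tested genes.

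Of the 4 receptor genes that rose, *Ccr1* and *Ccr2* lie on chromosome 9, and *Cxcr2* and *Cxcr4* lie far from each other on chromosome 1. The sequence around their start is shown because edgeR called these 4. The sequences are RefSeq promoters of GRCm38.p6, 250 bases before to 50 bases after the gene's start, written 5′ to 3′ on the gene's own strand, and all receptors but *Ccr7* were matched in the table. Capitals mark matches, on either strand, to GAGGAA (the core bound by PU.1, a transcription factor of myeloid cells) or to GAAANNGAA (a pattern like the interferon response element). These letters occur in 28.3 and 8.56% of the 32851 promoters of the table, the motifs searched do not contain each other, and TTGCNNAA (a C/EBP-like pattern), found in 10.8%, had no match in the 7 windows.
*Ccr1*, minus strand, chr9:123968643-123968942: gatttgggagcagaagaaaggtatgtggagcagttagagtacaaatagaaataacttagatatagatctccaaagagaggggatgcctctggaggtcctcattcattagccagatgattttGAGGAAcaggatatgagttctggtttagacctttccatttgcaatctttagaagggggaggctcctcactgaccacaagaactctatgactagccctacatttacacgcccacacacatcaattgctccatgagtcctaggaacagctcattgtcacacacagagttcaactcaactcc
*Ccr2*, plus strand, chr9:124101933-124102232: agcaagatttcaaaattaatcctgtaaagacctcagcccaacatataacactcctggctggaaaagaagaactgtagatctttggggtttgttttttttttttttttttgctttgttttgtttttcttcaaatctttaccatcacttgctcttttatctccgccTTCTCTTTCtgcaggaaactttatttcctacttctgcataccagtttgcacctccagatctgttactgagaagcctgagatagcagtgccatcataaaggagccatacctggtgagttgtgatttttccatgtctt
*Cxcr2*, plus strand, chr1:74153744-74154043: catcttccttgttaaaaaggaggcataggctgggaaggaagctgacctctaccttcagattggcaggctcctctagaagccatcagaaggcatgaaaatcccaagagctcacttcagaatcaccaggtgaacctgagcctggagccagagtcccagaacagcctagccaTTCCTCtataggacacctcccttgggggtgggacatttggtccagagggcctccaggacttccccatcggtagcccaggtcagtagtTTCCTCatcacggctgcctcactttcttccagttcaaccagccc
*Cxcr4*, minus strand, chr1:128592250-128592549: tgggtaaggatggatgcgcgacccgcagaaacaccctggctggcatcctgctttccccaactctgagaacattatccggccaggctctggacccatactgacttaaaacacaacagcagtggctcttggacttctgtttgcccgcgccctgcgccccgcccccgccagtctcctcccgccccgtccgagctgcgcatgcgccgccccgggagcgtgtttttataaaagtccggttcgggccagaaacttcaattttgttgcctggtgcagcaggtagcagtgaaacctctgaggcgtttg
The *Ccr1* window holds GAGGAA from 129 bases upstream of the start, and the *Cxcr2* window holds it on the opposite strand from 81 bases upstream and again from base 7 after the start. The match in the *Ccr2* window is GAAANNGAA on the opposite strand, from 86 bases upstream, and the *Cxcr4* window had no match to any of these letters. Among the receptors that did not pass, *Cxcr3* had GAGGAA from 14 bases upstream. These matches are a description of letters and not of bound sites.

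*Ccr1* encodes a receptor of monocytes, macrophages, and neutrophils for CCL3, CCL5, CCL6, and CCL9. It is annotated on chromosome 9 from 123762161 to 123768734 on the minus strand (GENCODE vM39, GRCm39). Its CPM were 0.475, 0.356, and 0.132 in WT and 0.869, 2.51, and 1.64 in Mcl1Δhep livers. Every Mcl1Δhep liver lay above every WT liver, with a log2 fold change of 2.34 (SE 0.52, edgeR adjusted p = 0.0118). The library counts behind these values were low, 4 to 18 reads in WT and 42 to 82 in Mcl1Δhep. Without Mcl1Δhep replicate 2, the highest liver, the log2 fold change was 1.92 (edgeR adjusted p = 0.0529).

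*Ccr2*, the receptor that brings classical monocytes out of the bone marrow, lies on chromosome 9 from 123901982 to 123913594 on the plus strand. It had 3.14, 1.48, and 2.08 CPM in WT and 5.92, 14.1, and 5.79 CPM in Mcl1Δhep livers. The groups did not overlap, replicate 2 of Mcl1Δhep stood above its other 2 livers, and the log2 fold change was 1.94 (SE 0.37, edgeR adjusted p = 0.0062). Leaving out any 1 of the 12 libraries kept *Ccr2* past the threshold (log2 fold change 1.38 to 2.27). 

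*Cx3cr1* (chromosome 9, 119877749 to 119898945, minus strand) encodes the receptor of fractalkine on patrolling monocytes and tissue macrophages. WT livers had 2.74, 2.17, and 0.958 CPM and Mcl1Δhep livers 3.83, 4.93, and 3.10. The groups did not overlap, and the difference did not pass in edgeR (log2 fold change 1.01, SE 0.39, adjusted p = 0.0850) but did in DESeq2 (1.02, adjusted p = 0.0482). A long noncoding gene on the opposite strand, *Gm33858*, overlaps *Cx3cr1* and had 0 to 1 counts per library.

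*Cxcr2*, the receptor that draws neutrophils to CXCL1 and CXCL2, lies on chromosome 1 from 74193150 to 74200405 on the plus strand and was the rarest of the 8 in reads. Its counts were 7, 10, and 2 in WT and 33, 28, and 10 in Mcl1Δhep livers, or 0.185, 0.297, and 0.0660 CPM and 0.683, 0.857, and 0.316 CPM. The lowest Mcl1Δhep liver lay just above the highest WT liver, and the log2 fold change was 1.73 (SE 0.53, edgeR adjusted p = 0.0394). This call rested on a narrow margin, since it was lost when 9 of the 12 libraries were left out one at a time (adjusted p up to 0.146). It was also lost with no filter on low counts (edgeR adjusted p = 0.0651) and with Y-linked expression as a covariate (edgeR adjusted p = 0.141). The direction was unchanged in these fits.

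*Cxcr4*, the receptor of CXCL12 on most leukocytes and on blood progenitors, is annotated on chromosome 1 from 128515936 to 128520044 on the minus strand. It had 0.633, 0.682, and 1.16 CPM in WT and 3.21, 9.30, and 3.73 CPM in Mcl1Δhep livers. This was the highest fold change of the 8 receptors, with a log2 fold change of 2.72 (SE 0.56, edgeR adjusted p = 0.0081). Every library could be left out with *Cxcr4* still past the threshold (log2 fold change 2.08 to 3.03).

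The 3 receptors of lymphocytes and mature dendritic cells stayed under the threshold. *Ccr7* (chromosome 11, 99035022 to 99045911, minus strand) had 0.449, 1.01, and 0.925 CPM in WT and 1.66, 1.01, and 1.23 CPM in Mcl1Δhep livers. The 2 groups met at 1.01 CPM, and the log2 fold change was 0.72 (SE 0.47, edgeR adjusted p = 0.286). *Cxcr3* (chromosome X, 100775141 to 100777875, minus strand), the receptor of interferon-induced chemokines on activated T cells and NK cells, had 0.660, 0.534, and 0.826 CPM in WT and 0.972, 0.704, and 0.949 CPM in Mcl1Δhep livers. These groups overlapped (log2 fold change 0.38, SE 0.41, edgeR adjusted p = 0.519), and with Y-linked expression as a covariate the estimate was −0.10.

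*Cxcr6* (chromosome 9, 123635534 to 123640825, plus strand), the receptor of CXCL16 on liver-resident T cells and NKT cells, had 1.13, 0.653, and 1.09 CPM in WT and 0.848, 1.93, and 1.68 CPM in Mcl1Δhep livers. The groups overlapped, with a log2 fold change of 0.62 (SE 0.37, edgeR adjusted p = 0.249). The gene lies within *Fyco1* on the opposite strand, which had 438 to 1628 counts per library and fell by 0.77 on the log2 scale (edgeR adjusted p = 0.0353). Whether reads were counted by strand is not given in the sources used here, so the 2 genes may share reads and the *Cxcr6* values are uncertain.

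**Figure D2:**
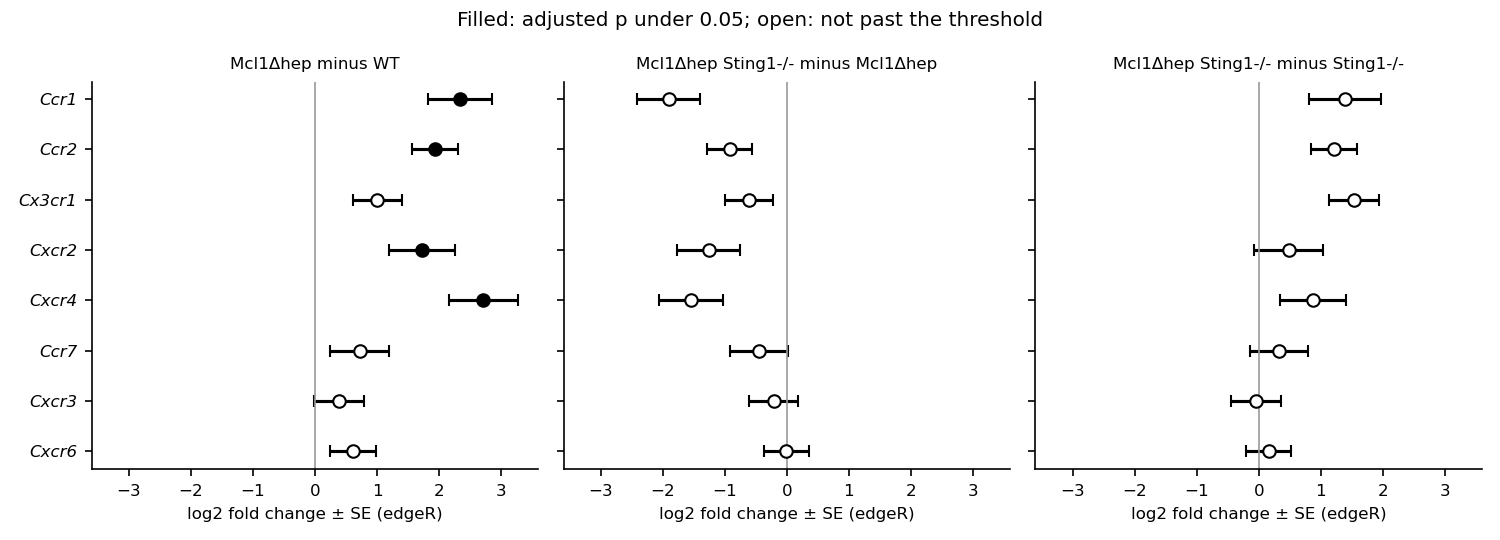
Log2 fold change (horizontal axes) with its standard error from edgeR for the 8 receptors in 3 comparisons, filled where the adjusted p was under 0.05. Filled points appear only for *Ccr1*, *Ccr2*, *Cxcr2*, and *Cxcr4* in Mcl1Δhep against WT, and the other comparisons share the Mcl1Δhep Sting1-/- libraries.

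Mcl1Δhep replicate 2 was the highest of its genotype for 6 of the 8 receptors (all but *Ccr7* and *Cxcr3*), and it also held the highest share of small structured RNA. With that share as a covariate in the edgeR fit, the 4 called receptors had log2 fold changes of 1.45 (*Ccr1*), 1.20 (*Ccr2*), 1.55 (*Cxcr2*), and 1.77 (*Cxcr4*), and 0 of 8 passed (adjusted p = 0.110 to 0.230), beside 3.25% of all tested genes. Without replicate 2, 2 of 8 passed, *Ccr2* and *Cxcr4*, beside 8.09% of all tested genes. With upper-quartile factors the median of all genes moved to 0.13, 73.4% of the called genes were higher in place of 53.4%, and *Ccr1*, *Ccr2*, *Cxcr2*, and *Cxcr4* were called as before.

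The neighbors of these genes allow a comparison within 1 stretch of chromosome 9, where *Ccr9*, *Cxcr6*, *Xcr1*, *Ccr1*, *Ccr1l1*, *Ccr3*, and *Ccr2* follow each other. *Ccr2*, and *Ccr1* with its start at −133.2 kb from that of *Ccr2*, rose in Mcl1Δhep livers. *Ccr3*, which lies between *Ccr1* and *Ccr2*, had a log2 fold change of 0.37 (SE 0.54, edgeR adjusted p = 0.645). *Xcr1* (0.41, SE 0.41) and *Ccr9* (0.91, SE 0.48) did not pass either, and *Ccr1l1* had 0 to 2 counts and was not tested.

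**Figure D3:**
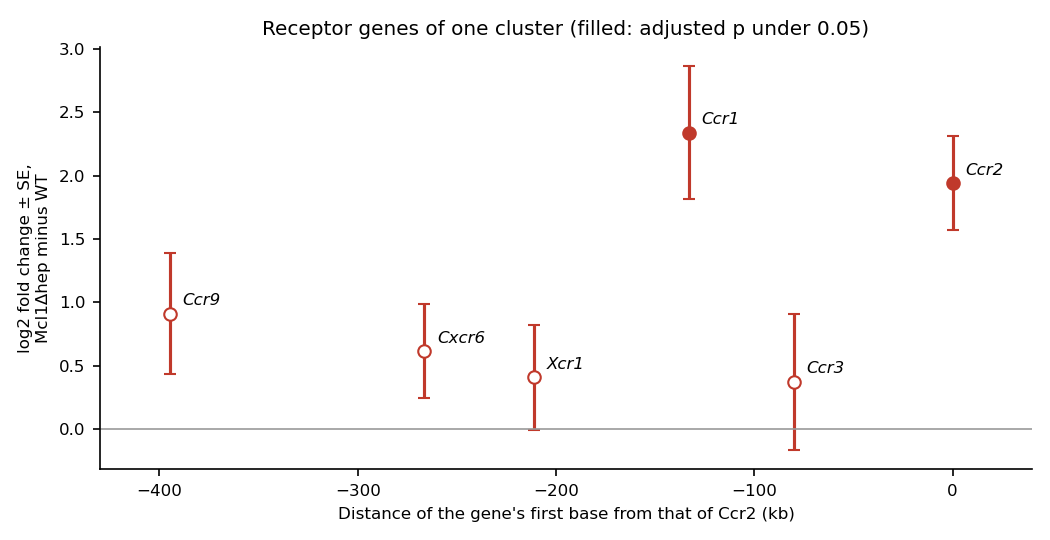
Log2 fold change between Mcl1Δhep and WT livers with its standard error (vertical axis) for tested receptor genes of the chromosome 9 cluster from *Ccr9* to *Ccr2*, by distance of their start from that of *Ccr2* in kb. *Ccr1* and *Ccr2* lie at 2.34 and 1.94, and *Ccr3*, between them, lies at 0.37.

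The comparison of Mcl1Δhep Sting1-/- with Mcl1Δhep livers asks how loss of *Sting1* changed these transcripts in livers that all lack MCL1 in hepatocytes. All 8 estimates were below 0, that of *Cxcr6* only at −0.01, with a median log2 fold change of −0.76 against −0.0021 for all tested genes. *Cxcr2*, which passed the filter on low counts through the Mcl1Δhep libraries alone, is included in the counts and the median of this comparison. An estimate below 0 was therefore favored for it in advance. In edgeR 0 of 8 receptors passed, as did 0.0% of all tested genes. At an unadjusted p under 0.05, 4 of 8 receptors and 20.6% of all tested genes were past it. DESeq2 called 1 receptor, *Ccr1*, beside 4.61% of its tested genes. In 3 receptors, *Ccr1*, *Ccr2*, and *Cxcr4*, the 2 groups of libraries did not overlap, and the same held for 18.2% of all tested genes.

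*Ccr1* had 0.601, 0.463, and 0.274 CPM in the 3 Mcl1Δhep Sting1-/- livers, each under the lowest Mcl1Δhep liver (log2 fold change −1.90, SE 0.51, edgeR unadjusted p = 0.0028, adjusted p = 0.133, DESeq2 adjusted p = 0.0254). *Cxcr4* had 1.34, 1.44, and 2.76 CPM there, again without overlap (log2 fold change −1.54, SE 0.52, edgeR adjusted p = 0.157, DESeq2 adjusted p = 0.0504). *Ccr2* had 4.51, 5.48, and 3.59 CPM, the highest of which lay just under the lowest Mcl1Δhep liver (−0.92, SE 0.36, edgeR adjusted p = 0.186). None of these differences passed in edgeR with all 12 libraries.

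The neutrophil receptor *Cxcr2* had 0.234, 0.341, and 0.192 CPM in Mcl1Δhep Sting1-/- livers and overlapped with Mcl1Δhep livers (log2 fold change −1.26, SE 0.51, edgeR adjusted p = 0.199). *Cx3cr1* had 3.94, 2.29, and 1.59 CPM, with the first liver inside the Mcl1Δhep range (−0.61, SE 0.38, edgeR adjusted p = 0.385). The lymphocyte receptors overlapped as well. *Ccr7* had 0.601, 1.24, and 1.01 CPM (−0.44, SE 0.46, edgeR adjusted p = 0.611), *Cxcr3* 0.301, 0.902, and 1.04 CPM (−0.21, SE 0.40, edgeR adjusted p = 0.785), and *Cxcr6* 1.17, 1.76, and 1.45 CPM (−0.01, SE 0.36, edgeR adjusted p = 0.990).

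Leaving out Mcl1Δhep replicate 1, the liver with the lowest *Ccr1* and *Cxcr4* of its genotype, put *Ccr1* (log2 fold change −2.22, edgeR adjusted p = 0.0125) and *Cxcr4* (−1.81, adjusted p = 0.0415) past the threshold. In that fit 20.2% of all tested genes were called, against 0.0% with all libraries, so 2 of 8 receptors is near the share of all genes. Small structured RNA was 0.431 to 0.532% of the counts in Mcl1Δhep Sting1-/- libraries, against 0.283, 2.37, and 1.36% in Mcl1Δhep libraries, and with it as a covariate *Ccr1* had a log2 fold change of −1.19 (edgeR adjusted p = 0.726) and *Cxcr4* −0.75 (adjusted p = 0.778).

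Between Mcl1Δhep Sting1-/- and Sting1-/- livers, which asks for the effect of the hepatocyte deletion where *Sting1* is lost in both groups by label, 7 of 8 receptors had estimates above 0 (median log2 fold change 0.68, all genes −0.0089). The edgeR test called 0 of 8 receptors and 0.803% of all tested genes, and 3 of 8 receptors and 11.3% of all genes had an unadjusted p under 0.05. DESeq2 called *Cx3cr1* and *Ccr2*, beside 2.92% of its tested genes. The libraries did not overlap for *Cx3cr1*, *Ccr1*, and *Ccr2*, as for 22.3% of all tested genes. *Cx3cr1* had 0.873, 0.982, and 0.820 CPM in the libraries labelled Sting1-/-, the tightest spread of the 4 genotypes, and all Mcl1Δhep Sting1-/- livers lay above it (log2 fold change 1.54, SE 0.41, edgeR adjusted p = 0.122, DESeq2 adjusted p = 0.0107). *Ccr2* had 1.80, 1.91, and 2.15 CPM in libraries labelled Sting1-/- (1.21, SE 0.37, edgeR adjusted p = 0.191, DESeq2 adjusted p = 0.0428). *Ccr1* had 0.0873, 0.239, and 0.169 CPM there, from 3 to 9 counts (1.39, SE 0.58, edgeR adjusted p = 0.381).

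Other receptors overlapped between the same genotypes. *Cxcr4* had 0.378, 1.59, and 1.04 CPM in the livers labelled Sting1-/- (log2 fold change 0.87, SE 0.54, edgeR adjusted p = 0.616) and *Cxcr2* 0.146, 0.133, and 0.265 CPM (0.48, SE 0.56, adjusted p = 0.832). Their lymphocyte receptors were spread widely, with 0.291, 0.823, and 1.16 CPM of *Ccr7*, 0.611, 0.743, and 0.965 CPM of *Cxcr3*, and 1.25, 0.902, and 1.76 CPM of *Cxcr6*. The log2 fold changes of these 3 genes were 0.33, −0.04, and 0.16 (edgeR adjusted p = 0.873, 0.987, and 0.923).

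Against WT, libraries labelled Sting1-/- had no called receptor, 0 of 8 in edgeR (0.0% of all tested genes) and 0 of 8 in DESeq2 (0.26% of its tested genes). At an unadjusted p under 0.05 stood 1 receptor, *Cx3cr1* (log2 fold change −1.14, SE 0.41, edgeR adjusted p = 0.813), and 5.45% of all genes. Its lowest WT liver, with 0.958 CPM, lay within the Sting1-/- range and the other WT livers above it. Mcl1Δhep Sting1-/- livers against WT gave 0 called receptors in edgeR (1.82% of all tested genes) and 0 in DESeq2 (4.23%), although 14.4% of all genes and 1 receptor, *Ccr2* (1.01, SE 0.37, edgeR adjusted p = 0.221), had an unadjusted p under 0.05. The libraries of these 2 genotypes did not overlap for *Ccr2*, for *Cxcr4* (1.17, SE 0.55, edgeR adjusted p = 0.362), or for *Cxcr6* (0.61, SE 0.37, adjusted p = 0.513), and the same held for 22.8% of all tested genes.

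Whether the effect of the hepatocyte deletion differed by *Sting1* was tested with the interaction term. It passed for 0 of 8 receptors in edgeR (0.0% of all tested genes) and for 0 of 8 in DESeq2 (1.14% of its tested genes). *Cxcr4* alone had an unadjusted p under 0.05 (log2 difference −1.84, SE 0.76, unadjusted p = 0.0325, edgeR adjusted p = 0.322), as did 14.4% of all genes. The estimates for *Cxcr2* (−1.25, SE 0.78), *Ccr1* (−0.94, SE 0.80), *Ccr2* (−0.73, SE 0.52), and *Cx3cr1* (0.53, SE 0.56) had adjusted p-values of 0.467 to 0.678 in edgeR, so a difference between the effects with and without *Sting1* was not detectable for them with 3 livers per genotype. Since the comparisons share libraries, their estimates are given side by side and not as independent results.

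Chemokines that bind the 8 receptors were examined next. Of 21 ligand genes with an identifier, 17 were tested, and between Mcl1Δhep and WT livers 9 rose, 0 fell, and 8 did not pass (edgeR, median log2 fold change 1.18). Among all tested genes edgeR called 20.2%, and 10.8% as higher. The 9 include *Cxcl2* and *Ccl7*, which passed the filter on low counts with the Mcl1Δhep libraries, where they were high. Among the ligands of CCR2, the monocyte attractants *Ccl2* and *Ccl7* rose. *Ccl2* went from 0.634 ± 0.457 CPM in WT to 3.92 ± 0.882 CPM in Mcl1Δhep livers (log2 fold change 2.63, SE 0.50, edgeR adjusted p = 0.0059). *Ccl7* was rarer, with 0.113 ± 0.0757 and 0.975 ± 0.225 CPM (3.12, SE 0.48, edgeR adjusted p = 0.0024). Its counts were 2 to 6 in WT, 24 to 57 in Mcl1Δhep, and 10 to 14 in Mcl1Δhep Sting1-/- livers. *Ccl12*, with 0 to 6 counts per library, was not tested.

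The CCR1 ligands *Ccl6* (9.68 ± 1.23 CPM in WT, 35.5 ± 19.3 in Mcl1Δhep, edgeR adjusted p = 0.0035), *Ccl9* (89.6 ± 18.4 and 169 ± 64.3 CPM, adjusted p = 0.0347), and *Ccl5* (log2 fold change 1.12, adjusted p = 0.0380) rose, and *Ccl3* had a log2 fold change of 1.83 (SE 0.68, edgeR adjusted p = 0.0736). *Cxcl2*, a ligand of CXCR2 made by activated macrophages, rose from 0.0264, 0.0297, and 0.0660 CPM (1 to 2 counts) to 0.455, 0.918, and 0.253 CPM (3.66, SE 0.73, edgeR adjusted p = 0.0072). It had 8 to 30 counts in Mcl1Δhep livers and at most 7 in any other library. *Cxcl2* thus passed the filter on low counts through the Mcl1Δhep libraries alone. *Cxcl1* (1.34, SE 0.61, edgeR adjusted p = 0.134) and *Ppbp* (−1.52, SE 0.67, adjusted p = 0.122), which also bind CXCR2, did not pass.

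The ligand of CXCR4 did not rise with its receptor. *Cxcl12*, made by stromal and endothelial cells, had 246, 222, and 173 CPM in WT and 139, 135, and 168 CPM in Mcl1Δhep livers. These groups did not overlap, and the log2 fold change of −0.53 (SE 0.23, edgeR adjusted p = 0.121) was not past the threshold. *Cx3cl1* (log2 fold change 1.11, edgeR adjusted p = 0.0371), *Cxcl16* (1.18, adjusted p = 0.0064), and *Ccl21a* (2.01, adjusted p = 0.0404), ligands of CX3CR1, CXCR6, and CCR7, rose although these 3 receptors were not past the threshold in edgeR. *Ccl19*, also a CCR7 ligand, had a log2 fold change of 1.21 (edgeR adjusted p = 0.0670), and the CXCR3 ligands *Cxcl9*, *Cxcl10*, and *Cxcl11* had 0.56, 1.17, and 0.02 (adjusted p = 0.324, 0.0977, and 0.979).

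With loss of *Sting1* by label on top of the hepatocyte deletion, 0 of 17 ligands passed in edgeR, 11 had an unadjusted p under 0.05, and the median log2 fold change was −0.82. The 17 include *Cxcl2* and *Ccl7*, which passed the filter on low counts with the Mcl1Δhep libraries, so lower values were favored for them in advance. Among all tested genes 0.0% passed, and 20.6% had an unadjusted p under 0.05. DESeq2 called 3 ligands, beside 4.61% of its tested genes. They were *Ccl6* (−1.13, adjusted p = 0.0188), *Ccl21a* (−2.07, adjusted p = 0.0222), and *Cxcl16* (−0.82, adjusted p = 0.0290). *Ccl2* was 1.81 ± 0.334 CPM in Mcl1Δhep Sting1-/- livers (−1.12, SE 0.46, edgeR adjusted p = 0.206), with all 3 livers between the WT and Mcl1Δhep ranges. *Ccl7* likewise had 0.339 ± 0.0637 CPM (−1.53, SE 0.41, edgeR adjusted p = 0.133).

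Of 11 other chemokine receptors that signal through G proteins, 5 passed the filter on low counts and 0 of 5 were called between Mcl1Δhep and WT livers by edgeR or DESeq2, with 0 at an unadjusted p under 0.05 (median log2 fold change 0.37). *Ccr8* had 0 to 1 counts, *Ccr6* 0 to 4, and *Cxcr1* 0 to 7. The lists were chosen with earlier results of these data known, so the contrast with the receptors above is no test. Among the 5 atypical receptors, which bind chemokines without G protein signaling, 0 were called in edgeR, 1 had an unadjusted p under 0.05, and DESeq2 called 1. Between Mcl1Δhep and WT livers, edgeR called 20.2% of all tested genes and DESeq2 23.0% of its own. The estimates were 0.80 for *Ccrl2* (SE 0.30, edgeR adjusted p = 0.0773), 0.77 for *Ackr3*, 0.69 for *Ackr1*, −0.0024 for *Ackr2*, and −0.68 for *Ackr4*.

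Of 28 genes that act after chemokine receptors, 6 rose, 1 fell, and 21 did not pass between Mcl1Δhep and WT livers (edgeR, median log2 fold change 0.36). Among all tested genes 20.2% were called, 10.8% as higher, so the share of these genes called in either direction was near that of all genes. *Rgs1*, which shortens G protein signaling of chemokine receptors in lymphocytes and myeloid cells, rose from 0.585 to 3.75 CPM on average (log2 fold change 2.69, SE 0.53, edgeR adjusted p = 0.0069). *Rgs2* (1.17, adjusted p = 0.0138) and *Pik3r5*, the regulatory subunit of PI3Kγ (1.40, adjusted p = 0.0217), rose as well, and *Dock8*, an exchange factor for CDC42 in migrating leukocytes, fell by 0.99 (adjusted p = 0.0187). With *Sting1* lost by label in addition, 0 of 28 were called in edgeR, 2 had an unadjusted p under 0.05, and DESeq2 called 1. The matching shares of all tested genes were 0.0, 20.6, and 4.61%.

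Markers of leukocytes moved between the same genotypes. Beside the counts of marker genes that rose between Mcl1Δhep and WT livers, edgeR called 10.8% of all tested genes as higher. Of 10 pan-leukocyte genes, 7 rose in Mcl1Δhep livers and 0 fell (edgeR, median log2 fold change 0.88), and their summed CPM ran from 224.7 to 285.1 in WT, 313.3 to 388.9 in Mcl1Δhep, 319.3 to 339.4 in Mcl1Δhep Sting1-/-, and 222.0 to 275.1 in Sting1-/- livers. Monocyte and macrophage markers rose in 7 of 10 genes (253.6 to 350.0 summed CPM in WT, 419.2 to 614.9 in Mcl1Δhep), among them *F13a1* (log2 fold change 2.48) and *Ly6c2* (1.86), the latter a marker of classical monocytes. Kupffer cell markers rose in 5 of 8 genes (431.5 to 697.3 and 851.2 to 930.2 summed CPM), and 1 of the 8 estimates was below 0. The highest called changes in this list were those of *Marco* (2.09) and of the complement genes *C1qa* (0.97), *C1qb* (0.97), and *C1qc* (0.75). The list's rise is therefore not a reading of every Kupffer cell marker.

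Neutrophil markers rose in 5 of 8 tested genes of 10 (3.14 to 5.32 summed CPM in WT, 11.1 to 24.9 in Mcl1Δhep, 6.68 to 7.60 in Mcl1Δhep Sting1-/-). Of these, *S100a9* (2.45), *S100a8* (1.95), and *Csf3r* (1.01) had a mean of at least 1 CPM, and the other called genes were rarer. The sum was 24.9 CPM in Mcl1Δhep replicate 2 and 12.7 and 11.1 in replicates 1 and 3. *Ly6g* was at 0 in all WT and all Sting1-/- livers. Dendritic cell markers rose in 4 of 8 genes (12.3 to 18.4 and 20.2 to 29.7 summed CPM), T cell markers in 3 of 9 tested genes (3.85 to 6.82 and 7.34 to 10.2), NK and cytotoxic markers in 2 of 7 (1.57 to 4.35 and 5.98 to 9.09), and B cell and plasma cell markers in 0 of 8 (3.27 to 13.2 and 8.01 to 13.3), with 0 of these 8 at an unadjusted p under 0.05 and 0 in DESeq2. The part of these markers in the receptor differences was not tested. In bulk tissue a change in the number of cells of a type and a change in RNA per cell cannot be told apart.

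**Figure D4:**
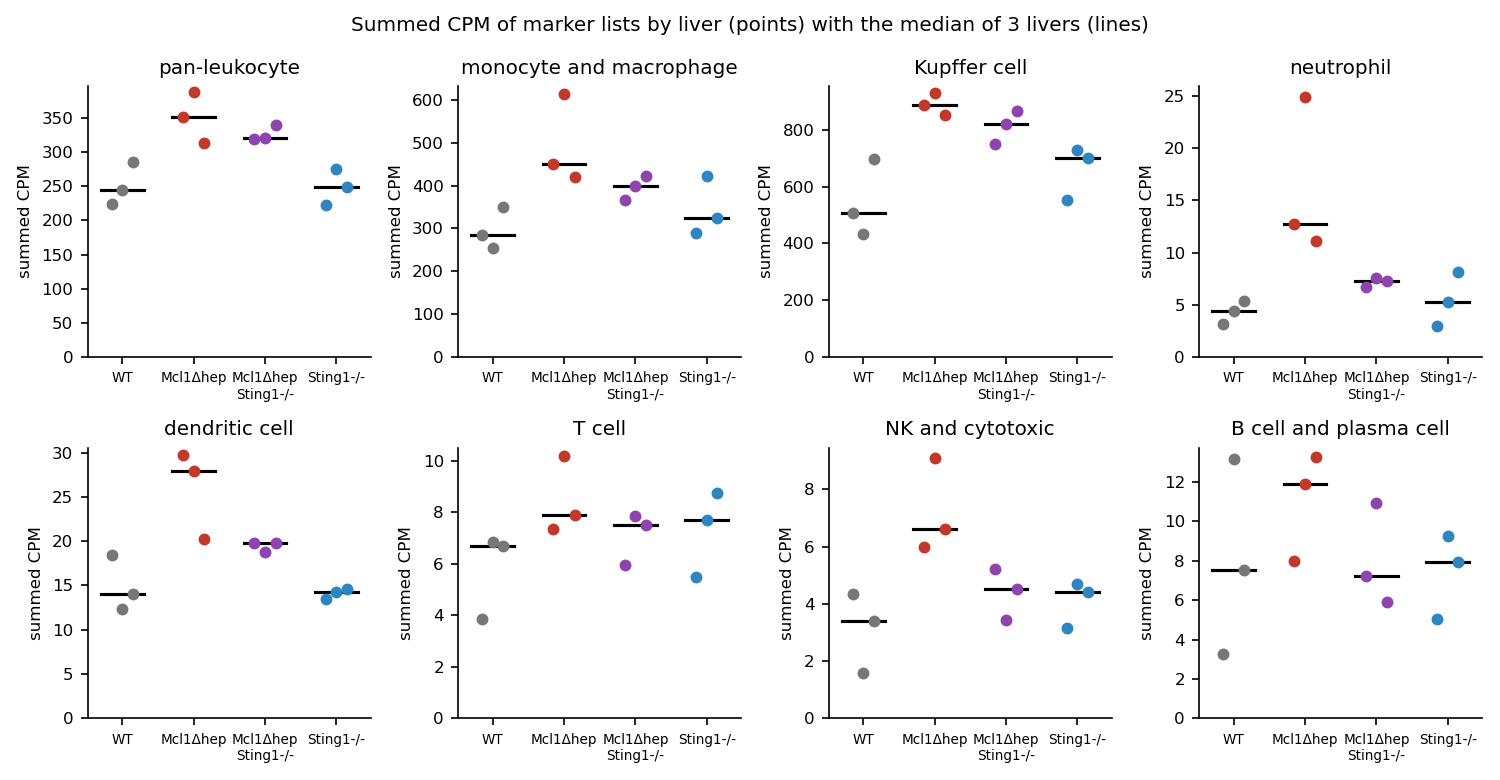
Summed CPM (vertical axes, from 0) of 8 lists of leukocyte markers in the 12 livers, with the median of 3 livers as a line. All Mcl1Δhep livers lie above all WT livers for the pan-leukocyte, monocyte and macrophage, Kupffer cell, neutrophil, dendritic cell, T cell, and NK lists, and the ranges of the B cell list overlap.

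Among other cells of the liver, the stellate list was the one with most of its genes called, where edgeR called 20.2% of all tested genes. Hepatocyte markers fell in 1 of 8 genes (*Cyp2e1*, by 1.68 on the log2 scale) and summed to 95910 to 151900 CPM in WT and 103000 to 138300 in Mcl1Δhep livers. Stellate cell markers rose in 4 of 6 genes (246.0 to 418.4 and 570.9 to 662.8 summed CPM), including *Acta2* (2.93) and *Col1a1* (1.99). Endothelial and cholangiocyte markers had 0 called of 6 tested genes each, 0 with an unadjusted p under 0.05, and 0 in DESeq2. The part of these cells in the receptor levels was not tested.

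Set against the pan-leukocyte genes of the same library, *Cxcr4*, *Ccr1*, and *Ccr2* were still apart between Mcl1Δhep and WT livers. *Cxcr4* equaled 0.282, 0.279, and 0.405% of the summed pan-leukocyte CPM in WT and 0.910, 2.39, and 1.19% in Mcl1Δhep livers, a log2 difference of 2.12. *Ccr1* equaled 0.211, 0.145, and 0.0463% in WT and 0.247, 0.645, and 0.525% in Mcl1Δhep (1.96), and *Ccr2* 1.40, 0.606, and 0.730% and 1.68, 3.63, and 1.85% (1.40). In these 3 genes the groups did not overlap, as in 49.5% of all tested genes on the same relative scale, so 3 of 8 receptors is not above the share of all genes.

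*Cxcr2* overlapped on this relative scale (log2 difference 1.41), with 0.0822, 0.121, and 0.0232% in WT and 0.194, 0.220, and 0.101% in Mcl1Δhep livers. The relative differences of *Cx3cr1* (0.64), *Ccr7* (0.28), *Cxcr6* (0.10), and *Cxcr3* (−0.10) came with overlapping libraries. Between Mcl1Δhep Sting1-/- and Mcl1Δhep livers, *Ccr1* (−1.75) and *Cxcr4* (−1.36) did not overlap on the relative scale, as for 19.3% of all tested genes, and *Ccr2* (−0.71) did. No test was run on this scale, and its values depend on the reference. Without the most abundant pan-leukocyte gene, all relative differences between Mcl1Δhep and WT livers were lower by the same amount.

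**Figure D5:**
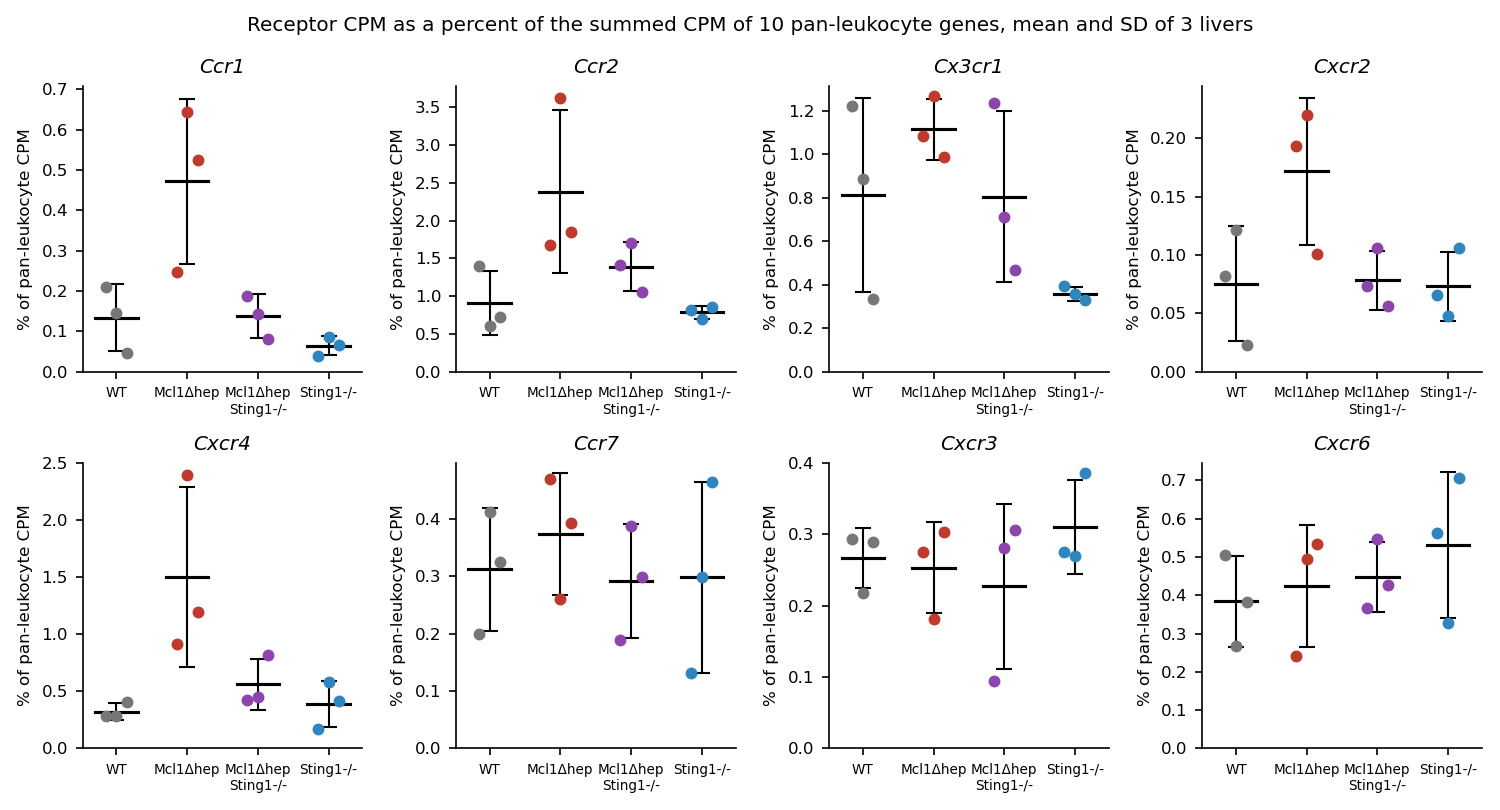
Each receptor's CPM as a percent of the summed CPM of 10 pan-leukocyte genes in the same library (vertical axes, from 0), with the mean and SD of 3 livers. *Cxcr4* reached 0.910 to 2.39% in Mcl1Δhep livers against 0.279 to 0.405% in WT, and *Cxcr3* and *Cxcr6* overlapped between all genotypes.

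The make-up of the 8 receptors as a group was also set side by side by genotype. As a share of their summed TPM, *Cxcr4* took 12.3 to 23.3% in WT, 30.2 to 45.1% in Mcl1Δhep, 17.9 to 34.4% in Mcl1Δhep Sting1-/-, and 11.01 to 31.2% in Sting1-/- livers. Only the WT and Mcl1Δhep ranges were apart, and all other pairs of genotypes overlapped. *Cxcr6* took 13.84 to 20.8% in WT and 7.52 to 13.76% in Mcl1Δhep livers, and *Cxcr3* 12.7 to 17.5% and 3.59 to 9.65%. Both thus held a lower share in Mcl1Δhep livers, where the sum of the receptors was higher. Summed over the 8 genes, the receptors came to 7.18 to 9.42 CPM in WT, 18.0 to 35.3 in Mcl1Δhep, 11.9 to 13.9 in Mcl1Δhep Sting1-/-, and 5.44 to 8.32 in Sting1-/- livers. Shares of a sum are bound to each other, and no test was run on them.

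Across the 12 libraries, which share genotypes and depth, the closest pairs of receptors were found among *Ccr1*, *Ccr2*, *Cx3cr1*, and *Cxcr4*. Pearson's r of log2 CPM was 0.900 between *Ccr1* and *Cx3cr1*, 0.873 between *Ccr1* and *Ccr2*, and 0.835 between *Ccr2* and *Cxcr4*. *Cxcr4* was less close to *Cx3cr1* (0.577) and *Cxcr2* (0.659), beside 0.633 with *Ccr7*. *Cxcr3* had r = −0.258 with *Cx3cr1* and −0.003 with *Ccr1*. The genes most like each receptor, out of tested genes with a mean of at least 1 CPM, were *Emp1* (r = 0.970), *Cd63*, and *Numbl* for *Ccr1* and *Lhfpl6* (0.974), *Rgs2*, and *Fxyd5* for *Ccr2*. *Cx3cr1* was closest to *Cyp1b1* (0.975), *Ccdc3*, and *Loxl1*, and *Cxcr2* to *Flvcr1* (0.964), *Ripk4*, and *Rras2*. *Snx20* (0.954), *Arhgdib*, and *Sla*, genes of blood cells, were closest to *Cxcr4*.

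The lymphocyte receptors had lower likeness. *Ccr7* was closest to the B cell gene *Cd79b* (r = 0.829), then *Plekhf2* and *Klf16*, *Cxcr3* to *Wipf3* (0.852), *Tinagl1*, and *Brms1l*, and *Cxcr6* to *Snx2* (0.877), *Borcs8*, and *Rxylt1*. These names depend on the measure, since with Spearman's rho 0 or 1 of the 3 genes was kept for each receptor. They are a description of 12 libraries and carry no test.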

How the data were processed

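Total RNA was extracted from 12 mouse livers (the labels name the RNeasy Plus Mini kit and the study's methods another RNeasy kit) and sequenced at a core facility. The authors deposited whole-number read counts per gene, 1 file per library. The submitters' processing notes name STAR, featureCounts, and GRCm39, and the annotation release, the versions, and the use of strand in counting are not given in the sources used here. Gene symbols, positions, and exon lengths were taken from GENCODE vM39, which matched 39533 of 40551 identifiers, so 1018 had no name.

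Counts were tested with edgeR 4.0.16 (quasi-likelihood, TMM factors, R 4.3.3) in 1 fit of all 4 genotypes, for the 15070 genes kept by filterByExpr, with Benjamini-Hochberg adjustment over all of them and a threshold of 0.05. Fold changes used a prior count of 0.125 and log2 CPM a prior count of 2. TPM used summed exon lengths, with the longest transcript as an alternative. DESeq2 1.42.0 was an alternative, where genes without an adjusted p were not counted. The other alternatives were other scaling factors, no filter, a fit of only the genotypes compared, covariates for Y-linked and small structured RNA expression, the replicate number as a block, and each library left out in turn. Figures were drawn with matplotlib 3.10.9.

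The receptors and gene lists were chosen with earlier results of these data known. Named genes were the receptors, their ligands, *Mcl1* and *Sting1*, up to 4 called genes of the highest absolute change per list with a mean of at least 1 CPM, and the 3 genes most like each receptor. *Ccr3*, *Xcr1*, *Ccr9*, *Ccr8*, *Ccr6*, *Cxcr1*, and the atypical receptors fell outside this rule and were named after their values were seen. A gene of the receptor lists is not reported here by name. Depth per library was 28826367 to 45266387 counts, and the receptors rested on 2 to 461 reads. Replicate pairs differed by 40.13 to 290.3 chi-square per degree of freedom, so no library was a repeat. On simulated counts for Mcl1Δhep against WT with 200 genes changed by 2 on the log2 scale, edgeR found 179 of 199 tested with 12 false calls among 14877 genes. DESeq2 found 179 of 200 with 27 false calls among 15070. The simulated libraries held no differences in small structured RNA, muscle, or Y-linked expression. These rates therefore check the code and do not give the error rate in these livers.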

Additional observations from a re-analysis of the deposited data

How the results depend on the processing

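Under the alternatives the Mcl1Δhep against WT estimates of *Ccr1*, *Ccr2*, *Cxcr2*, and *Cxcr4* stayed above 0, and the calls depended on the libraries and covariates. The number of receptors called was 4, 5 with DESeq2, 5 with the replicate block (*Cx3cr1* added, log2 fold change 1.09, edgeR adjusted p = 0.038), 0 with small structured RNA as a covariate, and 2 to 4 with 1 library left out. *Cxcr2* also lost its call in the fit of only the genotypes compared (adjusted p = 0.1) and with the Y-linked covariate (0.141). Over all genes, the 3050 calls became 1238 without Mcl1Δhep replicate 2, 5232 without Mcl1Δhep replicate 1, 1178 in the fit of only the genotypes compared, 1529 with the Y-linked covariate, and 490 with the small RNA covariate. Deviations from the genotype means correlated at −0.541 to 0.251 between libraries of the same replicate number and at −0.239 to 0.441 between other numbers, so the numbers were not taken to pair the livers. With upper-quartile factors 73.4% of calls were higher, against 53.4%. For Mcl1Δhep Sting1-/- against Mcl1Δhep the receptors called were 0, 1 with DESeq2, and 0 to 2 with 1 library left out (2 without Mcl1Δhep replicate 1, where the calls over all genes went from 0 to 3108), and against Sting1-/- 0, and 2 with DESeq2. The cause of these moves was not tested.

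Estimates that changed sign were all under the threshold. With the small RNA covariate these were *Cxcr6* at −0.12 (Mcl1Δhep against WT) and 0.59 (Mcl1Δhep Sting1-/- against Mcl1Δhep), *Ccr7* at 0.0449 and *Cxcr4* at −0.00539 (Sting1-/- against WT), and the interactions of *Ccr1* (0.0731), *Ccr2* (0.12), and *Cxcr6* (0.42). With the Y-linked covariate, *Cxcr3* was at −0.10, 0.098, −0.29, −0.20, and 0.20 (Mcl1Δhep against WT, Mcl1Δhep Sting1-/- against Sting1-/-, Sting1-/- against WT, Mcl1Δhep Sting1-/- against WT, interaction), *Cxcr6* at 0.10 (Mcl1Δhep Sting1-/- against Mcl1Δhep), and *Ccr7* at 0.021 (Sting1-/- against WT). *Cxcr6* between Mcl1Δhep Sting1-/- and Mcl1Δhep was 0.000799 without a filter and 0.0075 with the replicate block, which put *Cxcr2* at 0.13 for Sting1-/- against WT. Upper-quartile factors put *Cxcr3* at 0.0033 for Mcl1Δhep Sting1-/- against Sting1-/-. Without the most abundant pan-leukocyte gene, the relative difference of *Cxcr3* for Mcl1Δhep against WT went from −0.10 to −0.54. All receptors share this reference, so the relative differences of the others, *Cxcr4*, *Ccr1*, and *Ccr2* included, were lower by the same amount.

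With 1 library left out, Mcl1Δhep Sting1-/- against Mcl1Δhep ran from −0.51 to 0.15 for *Cxcr3* and −0.30 to 0.23 for *Cxcr6*. Against Sting1-/- it ran from −0.049 to 0.77 for *Ccr7*, −0.31 to 0.32 for *Cxcr3*, and −0.047 to 0.44 for *Cxcr6*. Against WT it ran from −0.012 to 0.51 for *Ccr7*, −0.017 to 0.73 for *Cx3cr1*, and −0.12 to 0.53 for *Cxcr3*. Sting1-/- against WT ran from −0.42 to 0.14 for *Ccr2*, −0.49 to 0.33 for *Ccr7*, −0.40 to 0.49 for *Cxcr2*, and −0.19 to 0.68 for *Cxcr4*, and the interaction of *Ccr7* from −0.77 to 0.053. In the fit of only the genotypes compared no interaction could be had, and *Cxcr2* and, for Sting1-/- against WT, *Ccr1* fell under the filter where Mcl1Δhep was absent.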
